A study of Mus musculus with 96 samples.

Results

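Caveolins and cavins were described by 7 genes chosen by name (Cav1, Cav2, Cavin1, Cavin2, Cavin3, Ehd2 and Pacsin2) of the 40202 genes listed in each count file. Caveolae are small flask-shaped pits of the plasma membrane that are rich in cholesterol and sphingolipids. Caveolins insert into the membrane and form its scaffold, cavins build a coat on the cytosolic side, and accessory proteins such as EHD2 at the neck and PACSIN2 at the curved membrane shape and hold the pit. Caveolae flatten when a membrane is stretched, and in the lung they are abundant in alveolar type I and endothelial cells and sparse in alveolar type II cells.

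The series holds 96 libraries, each from 1 cell of C10, a cultured mouse lung line that its labels class as alveolar type II epithelium. Untreated cells gave 48 libraries (control), and 48 came from cells given 10 nM RO-3306 for 36 h, a compound sold as an inhibitor of CDK1, the kinase that drives entry into mitosis. The dose is as labelled, and its unit may be a slip, since the same label text gives a dish size in a unit of concentration. The comparison asks how the transcripts of single cells differ between treated and untreated cultures. No separate culture, animal or passage is named, so each treatment counted as 1 sample, and no test across cells was made. Intervals are at the 95% level. Those of sums and folds cover the counting error of reads only. Reads without molecular identifiers include PCR copies, so these intervals do not cover the error in molecules. Intervals of shares cover the draw of cells only, and none covers differences between cultures. Library titles have a letter, A, B, C or D, in both groups. These 4 sets served to check the sign of a difference, though what the letters stand for is not given.

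A minimum of 50000 counts and 1000 genes kept 29 control and 37 RO-3306 cells. Kept cells held a median of 1753427 and 2234309 counts, or 66034079 and 92828839 in all, and the lowest kept totals were 59979 and 295005. After each cell was thinned to 639000 reads, which left out 4 control and 3 RO-3306 cells as too shallow, a cell held a median of 4551 genes in control and 5957.5 in RO-3306. The mitochondrial share of counts had a median of 3.40% and 4.42%, and 1 RO-3306 cell (B3) stood apart at 56.0%. Of 8 alveolar type II markers, Sftpa1, Sftpc, Sftpd and Slc34a2 were at 0 in every kept cell, and the list summed to 23.2 and 24.1 CPM (the summed counts of a group scaled to a common total of 1000000). That sum came almost all from Lpcat1, a phospholipid enzyme (13.5 CPM in control, 18.7 in RO-3306, in 7 of 29 and 17 of 37 cells), and Abca3, a lipid transporter (9.38 and 5.21 CPM, in 7 and 12 cells). The surfactant protein genes that define the labelled cell type were at 0, but for Sftpb at 0.0862 CPM in RO-3306. Epithelial markers summed to 1.78 and 0.978 CPM, with Krt18 and Cldn4 at 0 in both groups, whereas 8 of 8 mesenchymal markers averaged 5 CPM or more over the groups. Not all were widespread, since Pdgfra and Pdgfrb had a count in 6 and 7 of 29 control cells, and Pdgfrb was at 0.496 CPM in RO-3306.

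Across the gene set, Cavin1 was 5.89-fold lower in RO-3306 cells, Cav2 was 1.72-fold higher, and Cavin3 differed by 1.19-fold. Cav1 had nearly the same summed level in both groups, and Ehd2 and Pacsin2 were lower before gene length was taken into account. A gene was called only where the log2 ratio of RO-3306 to control, with 1 CPM added to both, was at least 1 in size and had the same sign in all 4 sets. Of the 6 members that averaged 5 CPM or more, 1 (Cavin1) was called lower, where 6.43% of 9374 genes at that level were called lower. No member was called higher, where 7.23% of those genes were, and calls in either direction took 13.7%. By the ratio alone 1 member was at -1 or less, as were 24.2% of genes, and none was at 1 or more, as were 12.2%. The median log2 ratio of the 6 members was -0.35, beside -0.22 over all genes, and 4 members lay below 0, as did 59.0% of all genes. TMM and DESeq2 scaling shifted the log2 ratios by about 0.21 and 0.24, so these medians are read relative to each other. Their summed level was 2115 CPM for control and 1964 CPM for RO-3306.

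**Figure D1:**
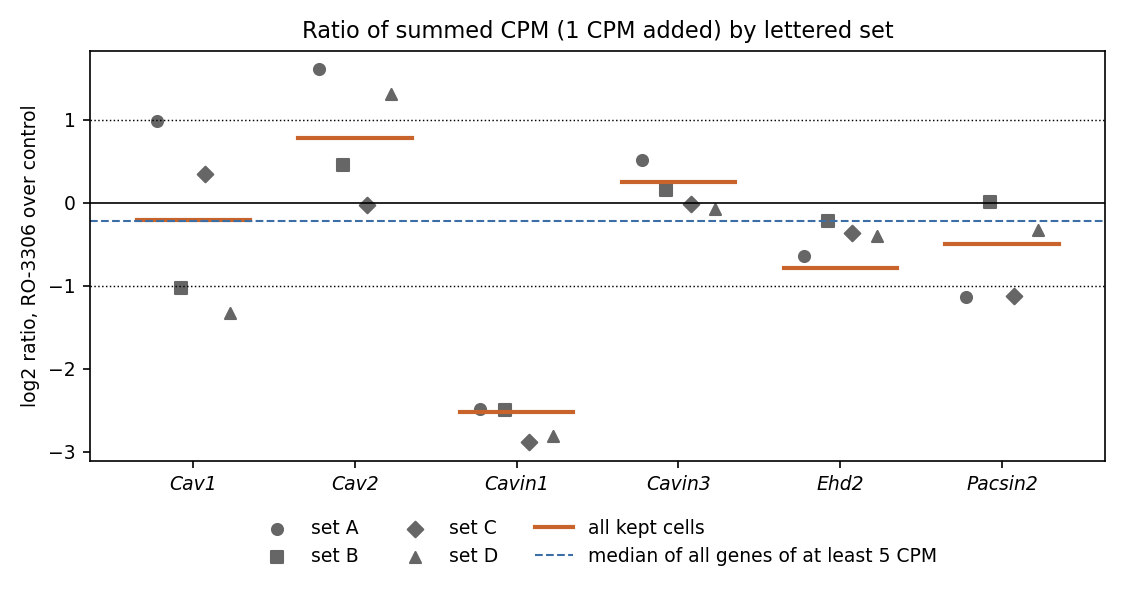
log2 ratio of RO-3306 over control CPM (vertical axis, 1 CPM added to both) for 6 caveola genes, for all kept cells (bars) and for each lettered set (symbols); the dashed line is the median of all genes of at least 5 CPM and dotted lines mark a log2 ratio of 1 either way. The 4 sets of Cavin1 lie between -2.89 and -2.48, while those of Cav1 lie on both sides of 0, and the pooled bar of Cav1 at -0.21 moves to 0.00 with TMM and 0.03 with DESeq2 scaling.

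Cav1 and Cav2 encode the 2 caveolins of non-muscle cells. CAV1 is the protein without which caveolae do not form outside muscle, and CAV2 pairs with it in hetero-oligomers. In the counting annotation (GRCm39) they are neighbours on chromosome 6, both on the plus strand, Cav2 at 17281184 to 17289129 and Cav1 at 17306287 to 17341327, with 17157 bases between them. Cavin1 encodes the coat protein that caveola formation requires, and lies on the minus strand of chromosome 11 at 100847562 to 100861443. None of these 3 gene spans overlaps another listed gene. The 3 members that form the core of the caveola are shown by the 250 bases before their outermost start in RefSeq, taken by symbol from the older GRCm38.p6 build. A start was found for 6 of the 7 members, and Cavin3 was the one without. Capitals mark matches, on either strand, to the TATA box (searched as TATAAA), to the GC box (searched as GGGCGG) or to the core bound by TEAD factors (searched as GGAATG). Cav1 is chr6:17306085-17306334 on the plus strand, Cav2 is chr6:17280935-17281184 on the plus strand, and Cavin1 is chr11:100970618-100970867 on the minus strand.
Cav1: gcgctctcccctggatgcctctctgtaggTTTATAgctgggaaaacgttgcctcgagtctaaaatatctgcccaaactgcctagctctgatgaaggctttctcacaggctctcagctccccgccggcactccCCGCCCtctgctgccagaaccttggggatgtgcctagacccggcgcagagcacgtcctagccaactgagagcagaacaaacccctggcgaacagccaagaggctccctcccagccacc
Cav2: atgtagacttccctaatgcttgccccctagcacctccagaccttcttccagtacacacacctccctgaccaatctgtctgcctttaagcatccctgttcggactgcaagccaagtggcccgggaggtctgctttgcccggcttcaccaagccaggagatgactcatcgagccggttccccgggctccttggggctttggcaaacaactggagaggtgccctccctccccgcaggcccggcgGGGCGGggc
Cavin1: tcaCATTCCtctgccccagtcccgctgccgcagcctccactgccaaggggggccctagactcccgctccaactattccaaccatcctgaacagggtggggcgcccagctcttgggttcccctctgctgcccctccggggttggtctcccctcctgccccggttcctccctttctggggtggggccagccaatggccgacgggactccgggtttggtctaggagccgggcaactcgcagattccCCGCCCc
All 3 windows hold 1 GC box, a motif found in 32.7% of 32851 promoter windows of the same length. The Cav1 window also holds 1 TATA box (12.4% of windows) and the Cavin1 window 1 TEAD core (12.6%). GCGTG, the core of the dioxin response element (28.2%), and the CArG box bound by SRF (1.47%) had no match in these 3 windows. Their GC contents were 59.6%, 62% and 67.6%, against a median of 52.4%. These matches describe letters only, and no binding was measured.

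Cav1 had the highest summed level of the members in both groups. Its summed level was 1111 CPM (1103 to 1119) in control and 963 CPM (957 to 969) in RO-3306, and 27 of 29 and 36 of 37 cells had a count. Single control cells ran from 0 through a median of 964 to 3245 CPM, and RO-3306 cells from 0 through 526 to 3297 CPM. The highest cells of both groups were thus alike and the middle of the RO-3306 group lay lower, with 9 of 37 RO-3306 cells above the control median. The lettered sets did not share a sign. In set A Cav1 was at 731 CPM in control and 1448 in RO-3306, and in set C at 839 and 1064. In set B it was at 1331 and 652, and in set D at 1905 and 755. The pooled log2 ratio of -0.21 turned to 0.00 with TMM scaling, 0.03 with DESeq2 scaling, 0.13 without set B and 0.02 without set D, so no direction is given for Cav1. Genes of like mRNA length had a median log2 ratio of -0.11, which leaves -0.10 for Cav1. The 3 kept cells with no Cav1 count were control cells C3 and D7 and RO-3306 cell C11, and C3, with 604699 counts over 2109 genes, also had no count of Cavin1 or Cavin3.

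Cav2 was higher in RO-3306 cells and had a count in a larger share of them. Its summed level was 193 CPM (190 to 196) in control and 333 CPM (329 to 337) in RO-3306, a fold of 1.72 (1.69 to 1.76). Control cells ran from 0 through a median of 57.2 to 828 CPM, with 11 of 29 at 0. RO-3306 cells ran from 0 through 231 to 1378 CPM, with 5 of 37 at 0. The ranges overlapped widely, and 28 of 37 RO-3306 cells lay above the control median. At equal depth, 15 of 25 control cells had a Cav2 count, or 60% (38.7% to 78.9%), against 30 of 34 RO-3306 cells, or 88.2% (72.5% to 96.7%). These intervals overlap. At that depth most genes were seen in more RO-3306 than control cells: 71.9% of all genes of at least 5 CPM had a higher share, with a median difference of 9.06 percentage points. The difference for Cav2 was 28.2 points, and 15.1% of genes had one as large or larger. By set, Cav2 was at 122 CPM in control and 375 in RO-3306 in set A, 257 and 354 in set B, 215 and 211 in set C, and 180 and 447 in set D. Set C was level while the other 3 sets were higher in RO-3306. The log2 ratio was 0.78, or 0.89 after the median of genes of like length was subtracted. Cav2 was not called, since its ratio was below 1 and set C had the other sign. It was called with DESeq2 scaling (1.02), without set C (1.04) and from the median over cells of per-cell CPM (2.00).

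**Figure D2:**
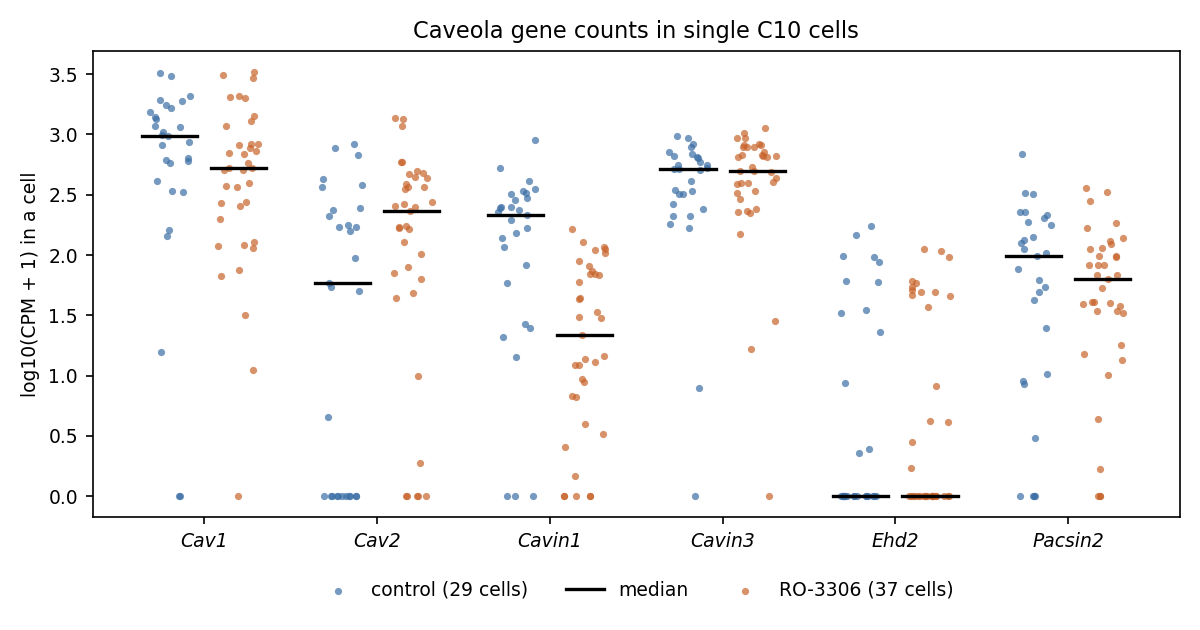
Level of 6 caveola genes in each kept cell as log10 of CPM plus 1 (vertical axis), 29 control cells in blue and 37 RO-3306 cells in orange, with the group median as a black line. For Cavin1, 17 control cells lie above the highest RO-3306 cell, while for Cavin3 the medians of 514 and 501 CPM are nearly level.

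Cavin1 was the member that differed most. It stood at 213 CPM (210 to 217) in control and 36.2 CPM (35 to 37.5) in RO-3306, which is 5.89-fold lower (5.68 to 6.12). Control cells ran from 0 through a median of 213 to 903 CPM and RO-3306 cells from 0 through 20.9 to 162 CPM. Of 29 control cells, 17 lay above the highest RO-3306 cell, and no RO-3306 cell reached the control median. The groups overlapped at the low end, where 3 control and 5 RO-3306 cells had no count. Set A was at 269 CPM in control and 47.4 in RO-3306, set B at 113 and 19.3, set C at 319 and 42.3, and set D at 261 and 36.3. Each set was thus lower in RO-3306, by log2 ratios of -2.48, -2.49, -2.89 and -2.81, while the level itself was lowest in set B in both groups. The number of control cells above the highest RO-3306 cell of the same set was 8 of 10 in A, 5 of 8 in B, 3 of 6 in C and 4 of 5 in D.

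The lower sum of Cavin1 came with fewer reads per cell more than with fewer cells that had any. At equal depth, 24 of 25 control cells (96%, 79.6% to 99.9%) against 29 of 34 RO-3306 cells (85.3%, 68.9% to 95%) had a Cavin1 count. At 5 counts or more the share was 96% in control and 64.7% in RO-3306. The median thinned cell held 222 CPM in control and 25.8 in RO-3306. Most genes had a higher share in RO-3306, and 92.6% of genes had a difference at or above the -10.7 points of Cavin1. Among 3702 genes that averaged 50 CPM or more, the Cavin1 log2 ratio of -2.53 ranked 21 from the lowest. Genes of like mRNA length had a median of -0.34, and subtracting it left -2.19. Cavin1 was called in all 16 alternatives tried, which ran from -3.29 to -2.19. The 5 RO-3306 cells without Cavin1 counts held 295005 to 4646751 counts in all, so some were deep cells. Cell B3, with the high mitochondrial share, was one of them.

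Cavin3, which binds CAV1 and the coat and has been studied as a tumour suppressor, was the steadiest member. Its gene is 1582 bases long on the minus strand of chromosome 7, at 105129823 to 105131404 (GRCm39). It stood at 441 CPM (436 to 447) in control and 527 CPM (522 to 532) in RO-3306, and 28 of 29 and 36 of 37 cells had some. Control cells ran from 0 through a median of 514 to 970 CPM, and RO-3306 cells from 0 through 501 to 1122 CPM. The cell-to-cell coefficient of variation was 0.548 and 0.547, the smallest among the 6 measured members in each group. The 4 sets gave log2 ratios of 0.51, 0.15, -0.02 and -0.08. The pooled ratio of 0.25 became 0.09 once the median of genes of like length was subtracted and -0.04 from the median over cells, so Cavin3 had no steady direction. No member was above 0 in all 4 sets, as were 13.1% of genes. At equal depth every cell of both groups had a Cavin3 count. The cells without one, control C3 (604699 counts) and RO-3306 A11 (515218 counts), were below the 639000 reads of thinning and so left out.

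Ratios of counts within the gene set need no scaling between groups, but they still carry group differences that go with mRNA length. Genes of like length had a median log2 ratio of -0.34 for Cavin1, 0.16 for Cavin3 and -0.11 for Cav1 and Cav2. These medians were not subtracted here. The count ratios were chosen after the levels had been seen. For each Cavin3 count there were 0.484 Cavin1 counts in control and 0.0687 in RO-3306, a 7.04-fold lower ratio. The sets ranged from 6.52-fold in B to 8.10-fold in A. Against Cav1, the Cavin1 ratio was 0.192 in control and 0.0376 in RO-3306, 5.11-fold lower, with sets from 2.85-fold in D to 11.3-fold in A. The coat gene was therefore lower against both partners in each set, and its ratio to Cavin3 varied less among sets than its ratio to Cav1. Cavin1 counts exceeded Cavin3 counts in 6 of 28 cells of the control group and in 1 of 37 of the RO-3306 group. The ratio of Cav2 to Cav1 was 0.174 in control and 0.346 in RO-3306, and it was higher in sets A, B and D and lower in C (log2 -0.37).

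**Figure D3:**
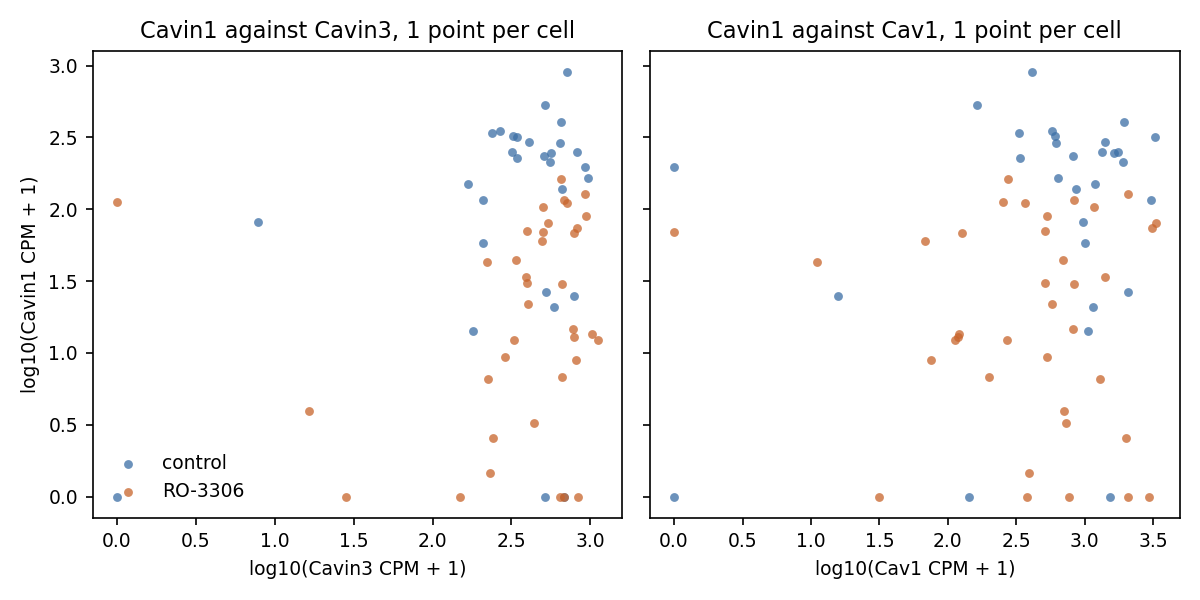
Cavin1 against Cavin3 (left) and against Cav1 (right), 1 point per kept cell, both axes as log10 of CPM plus 1, control in blue and RO-3306 in orange. RO-3306 cells lie below most control cells at like Cavin3 levels, and no RO-3306 cell exceeds 162 CPM of Cavin1.

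Cavin2, whose protein shapes caveolae in a tissue-dependent way, had no count in any kept cell. Its span (chromosome 1, 51328285 to 51342119, plus strand, GRCm39) lies wholly inside that of 9330175M20Rik on the other strand. Of 7471 spans that lie wholly inside another, 0 had a count in kept cells, so the counting left such genes without reads. The 0 therefore gives no level for Cavin2.

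Ehd2 and Pacsin2 encode membrane-shaping proteins, an ATPase at the caveola neck and an F-BAR protein that senses or makes curvature. Ehd2 (chromosome 7, 15680883 to 15701460, minus strand) stood at 34.1 CPM (32.7 to 35.5) in control and 19.3 CPM (18.4 to 20.2) in RO-3306. A count was found in 13 of 29 and 17 of 37 cells, so the median cell was at 0 in both groups, and the highest cells were at 172 and 111 CPM. All 4 sets lay below 0, at -0.64, -0.22, -0.37 and -0.40, as did 10.3% of all genes, and the pooled log2 ratio of -0.79 lay outside the range of the sets. Without set B it was -1.03 and Ehd2 was called. Its mRNA is long (5119 nt), and genes of like length had a median of -0.85, which leaves 0.05 for Ehd2. Part of the span, 833 bases or 4.05%, overlaps Gm24576, and reads there could not be counted.

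Pacsin2 (chromosome 15, 83259808 to 83348816, minus strand) stood at 122 CPM (120 to 125) in control and 86.2 CPM (84.3 to 88.1) in RO-3306. Control cells ran from 0 through a median of 97.5 to 689 CPM and RO-3306 cells from 0 through 62.1 to 355 CPM. The groups overlapped, and 11 of 37 RO-3306 cells lay above the control median. Sets A and C were lower in RO-3306, at -1.14 and -1.13, while B was level at 0.00 and D at -0.33. The pooled log2 ratio of -0.50 became -0.03 after the median of genes of like length was subtracted. Gm41368 overlaps 7.83% of the Pacsin2 span.

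Levels of different genes were compared per kilobase of mRNA, from the longest coding transcript of each symbol. Counts cover whole gene spans, so reads from introns are in the level but introns are not in the length. Spans differ widely, from 1582 bases for Cavin3 to 35041 for Cav1 and 89009 for Pacsin2, which limits the order given here. For Cavin3 that transcript, at 1662 nt, exceeds the counted span of 1582 bases, so its level per kb is a low estimate. In control cells the order was Cav1 at 405 CPM per kb, Cavin3 at 266, Cav2 at 70.6, Cavin1 at 61.2, Pacsin2 at 33.1 and Ehd2 at 6.66. In RO-3306 cells it was Cav1 at 351, Cavin3 at 317, Cav2 at 122, Pacsin2 at 23.3, Cavin1 at 10.4 and Ehd2 at 3.76. By sum, Cav1 and Cavin3 were close in RO-3306 cells, and a shorter length for Cavin3 would bring them closer. Whether it would turn their order was not tested. The middle cells give the spread around these sums. In control, the quartiles over cells were 150 to 560 CPM per kb for Cav1 and 159 to 391 for Cavin3, which overlap, and those of Cav2 (0 to 85.4) and Cavin1 (16.4 to 84.4) overlap as well. In RO-3306 the order of Cav1 and Cavin3 turned in the median cell, at 192 CPM per kb for Cav1 (quartiles 72.2 to 305) and 301 for Cavin3 (197 to 469), and 1 cell (A5) held 17.5% of all Cav1 counts. There, the quartiles of Cav2 (22.6 to 158) lay above those of Cavin1 (1.61 to 19.8), and those of Cavin1 and Pacsin2 (8.74 to 30.2) overlapped. Among all genes with a count and a length, Cavin1 ranked 1674 of 14292 in control and 4473 of 14952 in RO-3306, while Cav1 ranked 258 and 364.

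**Figure D4:**
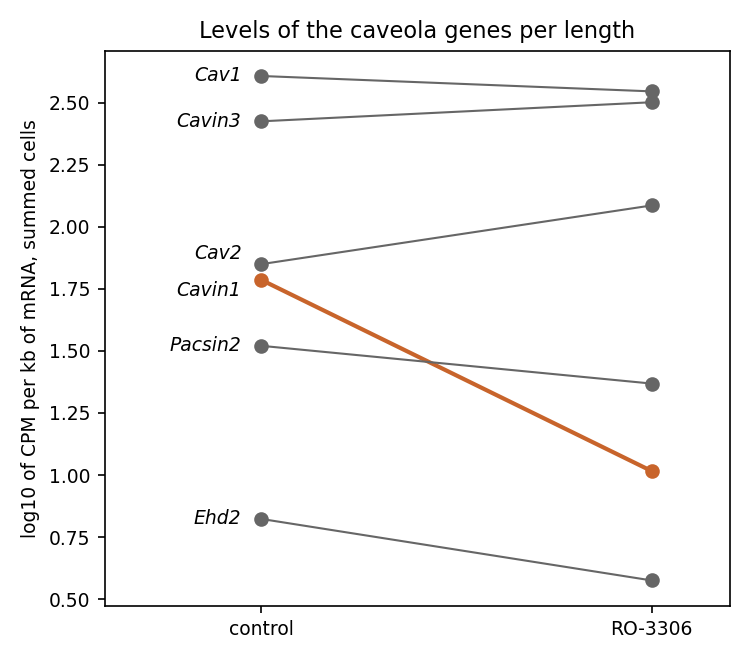
Summed level of 6 caveola genes per kilobase of mRNA (log10 of CPM per kb, vertical axis) in control and RO-3306 cells, each line being 1 gene. Counts include introns and the lengths do not. Cavin1, in orange, goes from 61.2 to 10.4 CPM per kb and passes below Pacsin2, while Cav1 and Cavin3 are the highest pair by summed level in both groups.

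The core genes were often found together in the same cell, but these joint shares largely restate those of single genes. At equal depth Cav1 was in 24 of 25 control and 33 of 34 RO-3306 cells, so joint shares with it mostly follow the other gene. Most genes also had a higher share in RO-3306 cells, with a median difference of 9.06 percentage points. At equal depth, 23 of 25 control cells (92%) held both Cav1 and Cavin1, against 28 of 34 RO-3306 cells (82.4%). Cav1 with Cav2 was present in 14 of 25 (56%) and 30 of 34 (88.2%). All 4 of Cav1, Cav2, Cavin1 and Cavin3 occurred in 14 of 25 cells (56%) of the control group and 26 of 34 (76.5%) of the RO-3306 group. Intervals of the compared shares overlap in each case. Across cells the amounts of the members were only loosely related. Spearman's rho of thinned counts, over 25 control and 34 RO-3306 cells that share the library preparation, had a median over 15 pairs of 0.04 in control and -0.08 in RO-3306. Cav1 with Cav2 gave 0.18 in control and 0.54 in RO-3306, the highest value of the RO-3306 group. Cavin1 with Cavin3 gave 0.04 and 0.33, and Cav1 with Cavin1 gave -0.04 and -0.08. The highest control value was 0.39, for Ehd2 with Pacsin2. Cav2 was also related to the number of genes in a thinned control cell (rho 0.51), with 0.15 in RO-3306 cells.

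Likeness to other genes was measured as the mean of the rho values of the 2 groups, over 2974 genes of at least 50 CPM present in at least 50% of the cells of each group. Nearest to Cav1 were Asf1b (0.57), which encodes a histone chaperone, Cs (0.50), for citrate synthase, and Lgals8 (0.49), for a galectin. Nearest to Cav2 were Pmm2 (0.51), Bsg (0.49) and Mapk14 (0.47), the last with 0.85 in control and 0.10 in RO-3306. Nearest to Cavin1 were Plxnb2 (0.46), for a semaphorin receptor, Manf (0.44) and Esd (0.43). Nearest to Cavin3 were Btf3 (0.43), Lamtor1 (0.43) and Fkbp11 (0.42), and nearest to Pacsin2 were Naa20 (0.46), Ssbp1 (0.45) and Gars (0.42). Ehd2, found in fewer than 50% of cells, and Cavin2 were not compared. These are the highest of many values and no member of the gene set was among them.

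Of the relatives of the members, Cav3, the muscle caveolin, was at 0 in every kept cell, and Cavin4, the muscle cavin, was at 0.0151 and 3.22 CPM, from 1 of 29 and 4 of 37 cells. Of 7 relatives outside the set, 3 reached 5 CPM, with a median log2 ratio of -0.60 and none called. Ehd1, which acts in endosome recycling, was at 136 CPM in control and 89.5 in RO-3306. Ehd4 was at 21 and 11.1 CPM, and Pacsin3 at 18.2 and 17.5 CPM.

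Of 10 genes that work with caveolae, 5 reached 5 CPM, and 1 of these was called lower, where 6.43% of all genes were. All 5 pooled log2 ratios were below 0, as were 59.0% over all genes, with a median of -0.80. The lists other than the members were not corrected for mRNA length. Genes of like length to Cavin3 (1662 nt) had a median log2 ratio of 0.16, and those like Ehd2 (5119 nt) had -0.85. The part of length in the values of these lists, clathrin genes included, was not tested. Fyn, at -0.23, comes close to 0 with DESeq2 scaling, which shifts the log2 ratios by about 0.24. Flna, Dnm2, Src and Fyn had sets of both signs. Abl1, a kinase tied to caveola turnover and stress fibres, was the called one, at 35.1 CPM in control and 9.12 in RO-3306. Flna, the actin crosslinker filamin A that tethers caveolae, was at 183 and 79.7 CPM but not lower in set A (0.29). Src was at 16.8 and 10.7 CPM and Fyn at 15.5 and 13.1 CPM. The flotillins, which mark other cholesterol-rich membrane domains, lay the other way. Flot1 was called higher, as were 7.23% of all genes, at 52.4 CPM in control and 107 in RO-3306. Flot2 was at 41.6 and 78.1 CPM with set B opposed (-0.50). Of 11 clathrin coat and adaptor genes, 8 were below 0, against 59.0% over all genes, and 3 were called lower, against 6.43%. Their median was -0.76, and Ap2a1, Ap2b1, Picalm and Eps15 among the 8 had sets of both signs. The called ones were Cltc, the clathrin heavy chain (184 and 62.6 CPM), Ap2a2 (166 and 59.5 CPM) and Dab2 (198 and 84.9 CPM), while the light chains Clta (270 and 303 CPM) and Cltb (135 and 155 CPM) lay slightly above 0.

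Of 8 genes listed for YAP and TEAD, a mechanically regulated transcription pair, 3 were called lower, where 6.43% of all genes were. The list holds targets of the pair and also Tead1, which encodes a TEAD factor. The pooled log2 ratio was below 0 for 6 of the 8, against 59.0% over all genes, with a median of -1.60, and Ccn2, Axl and Tead1 among these had sets of both signs. Ccn1 was at 340 CPM in control and 60.6 in RO-3306, Amotl2 at 281 and 72.1 CPM, and Ajuba at 104 and 27.4 CPM. Ccn2 was at 119 and 11.2 CPM but higher in set D, while Ankrd1 (81.9 and 105 CPM) and Lats2 (15.5 and 21.5 CPM) lay above 0. These ratios were not corrected for mRNA length, and no test links these genes to Cavin1.

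Markers of other cell types, some of them rich in caveolae, were set beside these values. Endothelial markers summed to 0.622 and 0.311 CPM, with Tie1 at 0. Adipocyte markers summed to 0 and 8.73 CPM, almost all Fabp4, with Adipoq, Cidec and Lep at 0. Alveolar type I markers other than Cav1 summed to 58.8 and 46.4 CPM, nearly all from Pdpn (50.9 and 37.8 CPM) and Rtkn2 (7.81 and 7.98 CPM), with Ager and Aqp5 at 0. Macrophage and leukocyte markers summed to 57.6 and 61.2 CPM, chiefly Lyz2 (29.5 and 15.8 CPM) and Cd14 (26.4 and 45.3 CPM). Of 6 striated muscle markers, 2 reached 5 CPM and both were called higher, where 7.23% of all genes were. These were Des (21.6 and 98.4 CPM) and Tnnt2 (16.5 and 62.0 CPM), while Ckm, Acta1, Myh2 and Myod1 were at 0. The muscle list ran from 0 to 270 CPM over control cells and from 0 to 466 CPM over RO-3306 cells.

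Of 8 mesenchymal markers, 2 were called lower, as Cavin1 was and as were 6.43% of all genes. All 8 pooled log2 ratios were below 0, against 59.0% over all genes, with a median of -1.78, but Fn1, Acta2, Cdh2 and Pdgfra had sets of both signs. These ratios too were not corrected for mRNA length. Col1a1 was at 714 CPM in control and 127 in RO-3306, and Col3a1 at 603 and 83.6 CPM. Pdgfrb was at 35.8 and 0.496 CPM, while Acta2 (1052 and 837 CPM) and Cdh2 (54.9 and 29.8 CPM) differed less and not in 1 direction in every set. The summed list ran from 1329 through a median of 4617 to 11354 CPM over control cells and from 1263 through 2323 to 13894 CPM over RO-3306 cells. The part of these markers, of the gene count per cell and of the muscle genes in the Cavin1 and Cav2 values was not tested. Housekeeping genes had a median of 0.09 over 7 genes, with none called. Gapdh (1076 and 1512 CPM) and Hprt (336 and 401 CPM) were the highest ratios and Actb (2636 and 1626 CPM) the lowest. B2m was at 0 and, like Cavin2, lies wholly inside another listed span, so this gives no level.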

How the data were processed

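RNA from 96 single C10 cells was analysed. Expected counts per gene were made by the authors with featureCounts 2.0.3 over whole gene spans, introns included, on the GRCm39 RefSeq annotation, with reads at several sites split into fractions, per the file headers. Neither strand nor overlapping genes are mentioned in the recorded command. The submitters' processing notes also name STAR and FastQC. Counting introns adds unspliced reads.

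Cells of under 50000 counts or 1000 genes were dropped. Counts were summed per group, rounded for intervals, thinning and scaling factors, and given as CPM. Ratios are log2 with 1 CPM added to both groups, which understates low genes. Sums carry exact Poisson intervals, fold changes conditional binomial ones and shares Clopper-Pearson ones. Thinning used percentile 10 of kept totals, rounded down to a multiple of 1000. No kept libraries were identical (0 pairs), and no doublet caller was run on sorted single cells. mRNA lengths came by symbol from GENCODE M21 (7 of 7 members, 97.2% of genes of at least 5 CPM, 20 bins) and promoters from RefSeq GRCm38.p6.

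All 7 members are named, with the 2 highest and 2 lowest ratios of each other list among genes of at least 5 CPM, and the 3 genes nearest to each of the 5 members detected in 50% or more of both control and RO-3306 cells. A housekeeping gene that this rule takes is not reported here. Dab2, Amotl2, Ajuba, Col1a1, Cav3, Cavin4, the genes beside a member and single markers at or near 0 were added after their values were seen. The members and lists were chosen with earlier results of these data known. Alternatives covered scaling by edgeR 4.0.16 and DESeq2 1.42.0 (R 4.3.3), cell weighting, pseudocount, filters, length and sets. Steps ran in Python 3.11.15 with numpy 2.4.6, pandas 2.3.3, scipy 1.17.1 and matplotlib 3.10.9, and were tested on simulated data.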

Additional observations from a re-analysis of the deposited data

Results flagged for a closer look

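The libraries below the minimum (19 control and 11 RO-3306) also held caveola counts, above the limit that a count of 0 allows (8.79 CPM over 341166 control counts and 2.58 CPM in RO-3306). Cavin1 reached 631 CPM in the left-out RO-3306 libraries, from 733.33 counts, and 99.8% of these were in library D3. That library held 44905 counts over 454 genes, with 732 of Cavin1, or 16301 CPM (15142 to 17526), and no count of any other member. Cavin3 reached 119 CPM in the left-out RO-3306 libraries, with 94.9% of its 138 counts in D10, a library of 63235 counts over 743 genes with no count of another member. Cav1 was at 32.2 CPM in the left-out control libraries (11 counts in 3 libraries) and 34.0 CPM in those of RO-3306 (39.5 counts in 4 libraries), and Cav2 was at 11.2 CPM in the latter (13 counts). Library B8 held 87.3% and 84.6% of these RO-3306 counts of Cav1 and Cav2.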

How the results depend on the processing

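The median log2 ratio of the caveola genes (-0.35) was -0.14 with TMM, -0.12 with DESeq2 size factors, -0.39 as a mean over cells, -0.44 thinned before summing, -0.40 without the top cell of each gene, 0.012 with the median of genes of like length subtracted, and -0.21 with no minimum of 5 CPM. It was -0.52 without set A, -0.30 without set B, -0.39 without set C and -0.23 without set D. The number called (1, Cavin1) was 2 with DESeq2 size factors and 2 without set C (both adding Cav2), 2 without set B (adding Ehd2), and 2 from the median over cells (adding Cav2), an alternative added after seeing the data. Over 16 alternatives each, Cav1 ran from -0.87 to 0.13, Cav2 from 0.45 to 2.00, Cavin1 from -3.29 to -2.19, Cavin3 from -0.04 to 0.49, Ehd2 from -1.03 to 0.05 and Pacsin2 from -0.74 to -0.03. Of 42 recomputed shares 41 stayed within their limits, the other being Cavin1 in RO-3306 cells at 5 counts or more (64.7%), and all 30 recomputed correlations did. The cause of these moves was not tested. No paired analysis was possible because each treatment is 1 sample and the result comes from no test. With 1 sample a group, differences between cultures cannot be told apart from differences between treatments.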

Other observations

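Genes beside the members were read for their own values. Stat3, the nearest expressed gene to Cavin1 on its lower-coordinate side, 17.1 kb away, was at 76.7 CPM in control and 31.9 in RO-3306, with log2 ratios of 0.37, -2.46, -0.01 and -2.20 in sets A to D. Atp6v0a1, 37.8 kb away on the other side, was at 8.44 and 8.07 CPM. Neither kept 1 sign in all 4 sets, in contrast to Cavin1. Most genes did not, as 13.1% of genes of at least 5 CPM were above 0 and 10.3% below 0 in all 4 sets. Above Cav1, 122 kb away, Met, which encodes the receptor of hepatocyte growth factor, was at 155 CPM in control and 52.2 in RO-3306, with 0.06 in set A and values below 0 in the other 3 sets. Capza2, further along, was at 951 and 633 CPM.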
